A study of Homo sapiens with 16 samples.

Results

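Chemokines, interleukins and their receptors were followed in MOLM-13, an established human acute myeloid leukaemia cell line, under inhibition of the chromatin enzymes EZH2 and PRMT5. The genes were taken by symbol, as CCL, CCR, CXCL or CXCR with a number, or IL with a number and a chain or receptor suffix. Of 144 such symbols in the table, 55 had a mean of at least 0.5 CPM, the count scaled to a common library size, over the 16 libraries, and these 55, of 60669 genes in all, are the members described here. They comprise 9 chemokines, 9 chemokine receptors, 8 interleukins, 26 interleukin receptor chains, and 3 genes that match the pattern without being either, namely the antagonist IL1RN, the binding protein IL18BP and the amino acid oxidase IL4I1. Just inside the minimum were IL20RB with 0.594 CPM and CCR7 with 0.552 CPM, and just outside it CXCL16 with 0.423 CPM and CCL20 with 0.422 CPM. The other 89 symbols fell below the minimum, 30 of them with 0 counts in every library, and a further 2 were left out by name, CXCL10 among them. Since the mean runs over all 4 treatments, 3 members (CCR6, CCR7 and IL20RB) are included although their DMSO mean was under 0.5 CPM. IL1B, CCR7 and IL17RE met the minimum only through the group where each was highest, namely DMSO, the combination and EZH2i. All 55 passed the filter on low counts and were tested.

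Each of 4 treatments was given for 4 days and had 4 libraries. Control cells received 0.005% DMSO, the solvent. The others received an EZH2 inhibitor at 1 µM (EZH2i), a PRMT5 inhibitor at 1 µM (PRMT5i), or both (the combination). The labels name neither compound. All 16 samples come from the same cell line, and the sources used here do not say whether replicates were separate cultures, so p-values refer to the spread among these libraries only, and that spread may be technical.

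Chemokines are small secreted proteins that draw leukocytes along a gradient, and they act through receptors coupled to G proteins. The inflammatory chemokines CCL2 to CCL5 and CXCL8 are made by monocytes and macrophages after stimulation of pathways that end in NF-kB and AP-1, and CXCL11 is induced by interferon. Interleukins signal mostly through receptor chains that share subunits and activate JAK kinases and STAT factors. The IL-1 and IL-17 families use adaptors instead, MYD88 being one of the IL-1 family. EZH2 deposits a repressive methyl mark on histone tails as the enzyme of a polycomb complex, and PRMT5 places symmetric dimethylation on arginines of histones and other proteins.

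The promoters of 4 members are shown because these genes stand for 3 responses described below. CXCL8 and CCL3 were lower with EZH2i, CCL23 was higher with PRMT5i, and IL23A was lower with PRMT5i. The sequences are from RefSeq on GRCh38.p14, 5′ to 3′ on the gene's own strand, beginning 250 bases before the RefSeq start and ending before the first base inside that window that GENCODE release 29 annotates as exon. For IL23A, GENCODE also holds noncoding transcripts that start further upstream, so the window shown precedes the coding transcript but lies in an intron of those. Capitals mark matches, on either strand, to the letters TATAAA for the TATA box, TGANTCA for AP-1 and GGNNTTTCC for NF-kB. They also mark AGGAAGT for PU.1, TTGCNNAA for C/EBP and TGACGTCA for the cyclic AMP response element (CRE). The interferon-stimulated response element (ISRE) was searched with letters of its own, not given here, and had no match in the windows of these 4 members.
CXCL8, chr4:73740319-73740505, plus strand: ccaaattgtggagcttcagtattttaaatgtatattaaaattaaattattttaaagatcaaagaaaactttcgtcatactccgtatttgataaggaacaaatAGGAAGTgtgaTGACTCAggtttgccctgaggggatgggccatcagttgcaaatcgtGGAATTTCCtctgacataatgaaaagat
CCL3, chr17:36090170-36090393, minus strand: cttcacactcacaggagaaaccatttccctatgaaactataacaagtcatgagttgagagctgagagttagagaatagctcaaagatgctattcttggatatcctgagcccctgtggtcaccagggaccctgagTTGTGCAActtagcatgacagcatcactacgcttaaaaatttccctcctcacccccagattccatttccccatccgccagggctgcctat
CCL23, chr17:36017973-36018222, minus strand: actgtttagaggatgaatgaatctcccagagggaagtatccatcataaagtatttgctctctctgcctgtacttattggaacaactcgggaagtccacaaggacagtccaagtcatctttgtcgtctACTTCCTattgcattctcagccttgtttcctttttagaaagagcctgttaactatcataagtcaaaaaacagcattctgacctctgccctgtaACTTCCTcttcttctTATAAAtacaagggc
IL23A, chr12:56338634-56338874, plus strand: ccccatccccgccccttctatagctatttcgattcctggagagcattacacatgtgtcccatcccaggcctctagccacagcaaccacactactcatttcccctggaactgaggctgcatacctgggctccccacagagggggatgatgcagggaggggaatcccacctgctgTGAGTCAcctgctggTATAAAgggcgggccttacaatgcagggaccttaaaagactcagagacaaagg

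In the CXCL8 promoter the PU.1, AP-1 and NF-kB letters lay 148 to 142, 137 to 131 and 91 to 83 bases before the start. A TATA box at 31 to 26 lay beyond the bases shown. The CCL3 window held a C/EBP match at 116 to 109, and a TATA box at 29 to 24 crossed the end of the bases shown and is not in capitals. CCL23 held PU.1 matches at 123 to 117 and 30 to 24 and a TATA box at 15 to 10. IL23A held AP-1 letters at 77 to 71 and a TATA box at 62 to 57. RefSeq entries were found for 45 members, with 73 starts in all. Of these starts, 20.5% held the AP-1 letters within 250 bases, 19.2% PU.1, 12.3% NF-kB, 12.3% C/EBP, 15.1% TATAAA, 6.85% ISRE and 1.37% CRE. Among all 35116 starts of the table the shares were 6.57%, 7.01%, 5.48%, 9.05%, 10.7%, 3.02% and 1.65% in the same order. Starts of 1 gene overlap, so these shares are descriptions, and a match is not a binding site. Not in the table were, among others, CCL2, CCL4, CCL5, CCR7, IL17RA, IL18, IL23R, IL2RB and IL31RA.

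Libraries held between 31.1 and 52.9 M expected counts, and 16555 genes were tested. Monocytic and leukaemic marker genes were expressed in every library, with a summed level of 2080 to 2730 CPM in DMSO libraries, 2020 to 2170 with EZH2i, 3010 to 3380 with PRMT5i and 2630 to 2880 in the combination. All 16 of these markers were detected, but 2 of them (ANPEP and the monocyte marker CD14) had means under 0.5 CPM. Of 12 T and NK cell markers, 8 had a mean under 0.5 CPM and CD2 and CD8B had no counts. Their sum was 71.2 to 100 CPM in DMSO libraries, 100 to 138 with EZH2i, 60.4 to 77.1 with PRMT5i and 83.4 to 99.4 in the combination. All 7 B cell and all 11 erythroid and megakaryocyte markers had means under 0.5 CPM. Of 11 epithelial and fibroblast markers CDH1 had no counts, 8 had means under 0.5 CPM, and the sum was 12.7 to 17.6, 19.5 to 31.7, 20.2 to 22.0 and 26.0 to 28.7 CPM. The markers above that level were KRT18, KRT8 and COL1A2. KRT18 had means of 12.6, 20.4, 17.2 and 21.3 CPM in DMSO libraries, EZH2i, PRMT5i and the combination. The part of these differences in the results below was not tested, and in bulk RNA a change in the share of cells that express a gene and a change in RNA per cell cannot be told apart.

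CCL2, CCL3, CCL4, CXCL8 and CXCL11 fell with EZH2i, while PRMT5i raised several receptors for interleukins and chemokines and moved ligands both ways. With EZH2i against DMSO, 11 of the 55 members passed an adjusted p of 0.05, beside 7.6% of all genes tested. Of these 9 were lower (3.49% of all genes were) and 2 higher (4.11%). Of the 9 chemokines 5 fell and none rose, and the others that fell were the receptor CCR2, the interleukin IL1B and the receptor chains IL27RA and IL12RB1. IL32 and IL2RB rose. The median log2 fold change was −0.09 over the members and −0.01 over all genes.

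With PRMT5i against DMSO, 21 members passed, beside 35.3% of all genes. Here 14 were higher, beside 17.1% of all genes, and 7 lower, beside 18.3%, with a median of 0.12 against 0.00. Of the chemokine receptors 3 of 9 rose and none fell, and of the interleukin receptor chains 6 of 26 rose and 2 fell, so that 33.3% and 30.8% passed, shares near that of all genes. Of the ligands, 2 chemokines and 1 interleukin rose and 2 chemokines and 3 interleukins fell. The antagonist IL1RN and the binding protein IL18BP rose as well. With libraries scaled to total counts only, 17 members were higher and 5 lower. Of all genes 3026 were then higher and 2560 lower, in place of 2824 and 3023.

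In the combination against DMSO 26 members passed, beside 36.2% of all genes, with 17 higher (17.6% of all genes) and 9 lower (18.5%). The median was 0.12 over the members and 0.00 over all genes. By role the higher and lower counts were 2 and 3 for chemokines, 4 and 0 for chemokine receptors, 2 and 2 for interleukins, 7 and 4 for interleukin receptor chains, and 2 and 0 for the other genes. Scaling to total counts only gave 19 higher and 5 lower, and under it the median of all genes was 0.13. These 3 comparisons share the DMSO libraries.

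Adding EZH2i to PRMT5i changed 7 members, beside 4.16% of all genes. Lower were 6 (1.24% of all genes), namely CCL2, CXCR2, IL7R, IL13RA1, IL12RB1 and IL27RA, and only IL12RB2 was higher (2.91%). Scaling to total counts only gave 2 higher and 3 lower. Adding PRMT5i to EZH2i changed 26 members, beside 28.0% of all genes, with 19 higher (13.4%) and 7 lower (14.6%). Of the chemokine receptors 6 of 9 rose in this comparison and none fell. The members' medians were −0.04 and 0.19, and those of all genes 0.00 and 0.01.

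**Figure D1:**
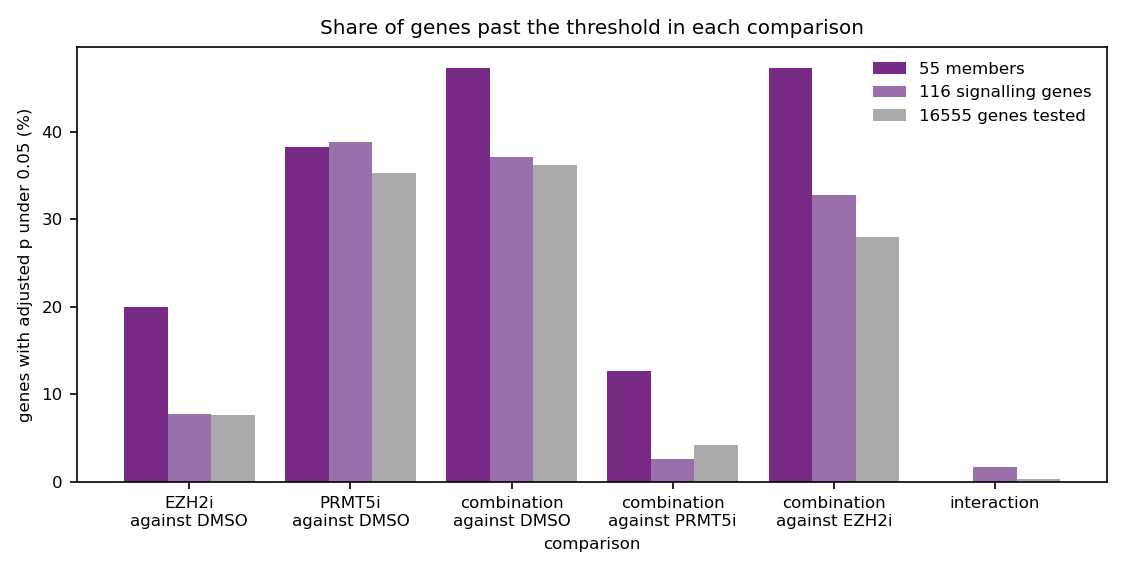
Share of genes past an adjusted p of 0.05 (y axis, %) in each of the 6 comparisons (x axis) for the 55 members, 116 signalling genes and all 16555 genes tested. With EZH2i the members' bar stands at 20.0% and that of all genes at 7.6%, whereas with PRMT5i the bars stand at 38.2% and 35.3%, and for the interaction, the difference between the EZH2i effects with and without PRMT5i, no member is counted.

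The counts for EZH2i moved most with the libraries used. Without DMSO replicate 2, 21 members passed against DMSO, and the count was 7 and 5 without DMSO replicates 3 and 4, and 7 and 6 without EZH2i replicates 1 and 2. The count of all genes moved likewise, from 1259 to 4591 without DMSO replicate 2 and to 499 without DMSO replicate 4. Fitted to the 8 DMSO and EZH2i libraries alone, only CCL2 and IL1B passed, and the other 9 had adjusted p-values of 0.0632 to 0.184. In that fit 135 of all genes passed. For the combination against PRMT5i the count of 7 became 3 without PRMT5i replicate 3 or 4 and 4 without combination replicate 2. Without PRMT5i replicate 3 the count of all genes was 263 in place of 688.

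**Figure D2:**
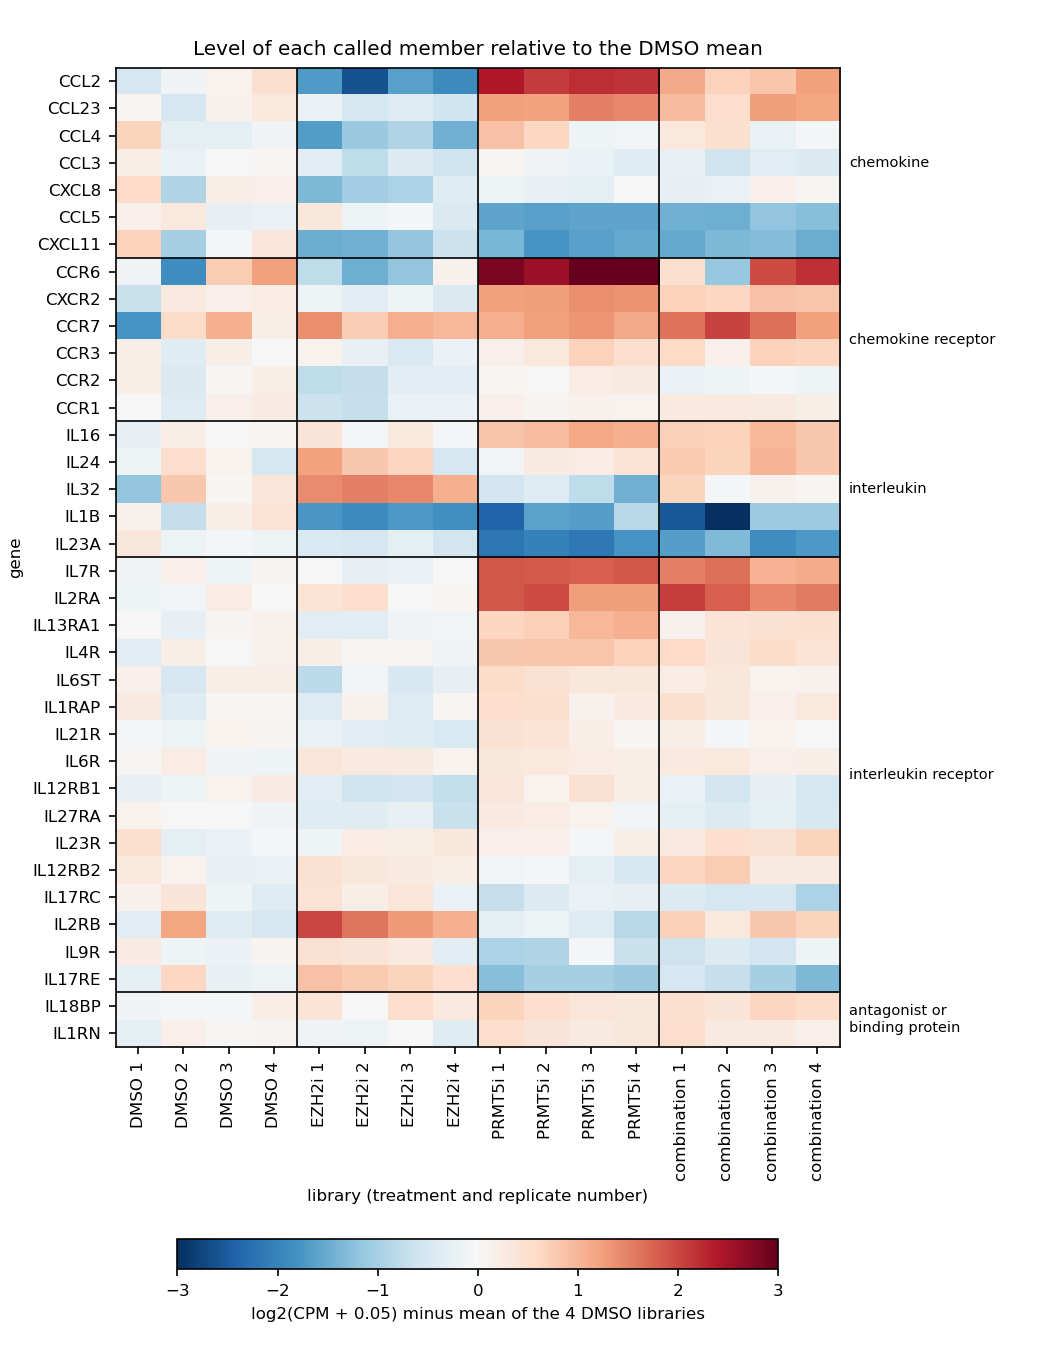
Level of 36 members past the threshold in any comparison, as log2(CPM + 0.05) minus the mean of the 4 DMSO libraries (colour), for each gene (rows, grouped by role) and library (columns). CCL2 is blue in all 4 EZH2i libraries and red in all 4 PRMT5i libraries, and IL7R and IL2RA are red in all 8 libraries with PRMT5i.

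CCL2 (ENSG00000108691.9; chromosome 17, 34255218 to 34257203, GRCh38), the main attractant of monocytes and the ligand of CCR2, responded to the inhibitors in opposite directions. It had 0.693, 0.935, 1.09 and 1.42 CPM in DMSO replicates 1 to 4 and 0.274, 0.121, 0.288 and 0.230 CPM with EZH2i. With PRMT5i it had 5.48, 4.42, 4.85 and 4.67 CPM, and in the combination 2.25, 1.66, 1.81 and 2.40 CPM. No 2 of the 4 groups overlapped, and the order was EZH2i, DMSO, combination, PRMT5i. EZH2i lowered it by a log2 fold change of −2.22 (SE 0.27, adjusted p = 0.000255) against DMSO and by −1.26 (SE 0.20, adjusted p = 0.00244) against PRMT5i. PRMT5i raised it 4.62-fold over DMSO (log2 2.21, SE 0.21, adjusted p = 5.77e-07) and 9.02-fold over EZH2i (3.17, SE 0.26, adjusted p = 2.68e-07), and the combination stood 1.94-fold above DMSO (adjusted p = 0.00236). All 5 calls held in each fit that left out 1 library. The lowest EZH2i library rests on 6 counts.

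CCL3 and CCL4, which encode the macrophage inflammatory proteins and lie beside each other on chromosome 17, fell with EZH2i. CCL4 (chromosome 17, 36103590 to 36105621) had 3.13, 1.59, 1.63 and 1.82 CPM in DMSO libraries and 0.575, 0.884, 1.02 and 0.689 CPM with EZH2i. With PRMT5i it had 3.62, 3.02, 1.80 and 1.86 CPM, and in the combination 2.46, 2.75, 1.70 and 1.90 CPM. All EZH2i libraries lay below all others, and the other 3 groups overlapped. The log2 fold change with EZH2i was −1.35 (SE 0.29, adjusted p = 0.0117), the combination stood 2.77-fold above EZH2i (log2 1.47, SE 0.29, adjusted p = 0.00116), and PRMT5i against DMSO did not pass (0.34, SE 0.27).

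CCL3 (chromosome 17, 36088256 to 36090169) had 10.3, 7.89, 9.05 and 9.29 CPM in DMSO libraries and 7.15, 5.30, 6.86 and 6 CPM with EZH2i. It had 9.51, 8.41, 7.93 and 7.01 CPM with PRMT5i and 7.84, 5.98, 7.16 and 6.70 CPM in the combination. Every EZH2i and combination library was below every DMSO library. The gene fell by 0.53 in log2 units with EZH2i (SE 0.13, adjusted p = 0.0188) and by 0.40 in the combination (SE 0.12, adjusted p = 0.0196). The former call ended without replicate 4 of DMSO or replicate 2 of EZH2i (adjusted p = 0.0576 to 0.0601), and the latter without combination replicate 2 (adjusted p = 0.0666) or with total counts only (adjusted p = 0.0838). A gene on the opposite strand shares 74.6% of the exon bases of CCL3, and both genes have near-identical copies nearby, so their levels are uncertain to that extent.

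CXCL8, the neutrophil attractant interleukin 8 (chromosome 4, 73740506 to 73743716), and CXCL11 (chromosome 4, 76033682 to 76041415) were lower with EZH2i than with DMSO but had wide DMSO spreads. CXCL8 had 10.2, 3.65, 7.73 and 7.60 CPM in DMSO libraries and 2.68, 3.31, 3.51 and 5.31 CPM with EZH2i. Its PRMT5i libraries held 6.26, 5.86, 5.58 and 6.91 CPM, and its combination libraries 5.80, 5.91, 7.55 and 7.05 CPM. DMSO replicate 2 lay within the EZH2i range, and the combination lay wholly above it. The log2 fold change was −0.98 with EZH2i (SE 0.24, adjusted p = 0.0222) and 0.83 for the combination against EZH2i (SE 0.24, adjusted p = 0.0174). The former ended without replicate 1, 3 or 4 of DMSO or replicate 1, 2 or 3 of EZH2i (adjusted p = 0.0544 to 0.0759), and the latter without EZH2i replicate 1 (adjusted p = 0.0574).

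CXCL11 had 4.52, 1.37, 2.67 and 3.57 CPM in DMSO libraries and 0.958, 0.984, 1.21 and 1.75 CPM with EZH2i. It had 1.04, 0.778, 0.863 and 0.920 CPM with PRMT5i and 0.924, 1.06, 1.10 and 0.964 CPM in the combination. Every PRMT5i and combination library was below every DMSO library, while DMSO replicate 2 overlapped the EZH2i group. It fell by 1.32 in log2 units with EZH2i (SE 0.28, adjusted p = 0.0105), by 1.75 with PRMT5i (SE 0.28, adjusted p = 0.000130) and by 1.59 in the combination (SE 0.28, adjusted p = 0.000357), and all 3 calls held without any 1 library. The combination did not differ past the threshold from either single inhibitor (0.17 and −0.27).

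CCL5, a ligand of CCR1 and CCR3 (chromosome 17, 35871491 to 35880793), had the highest level per kilobase of exon among the members with DMSO, 183 CPM per kb, before CXCR4 with 35.6, IL3RA with 33.4, CCR2 with 32.7 and IL17RA with 27.0. Its libraries held 303, 340, 229 and 237 CPM in DMSO libraries and 347, 246, 269 and 201 CPM with EZH2i. They held 91.1, 89.0, 91.8 and 91.1 CPM with PRMT5i and 101, 99.2, 120 and 113 CPM in the combination. The groups with PRMT5i lay far below those without it, and DMSO and EZH2i overlapped. CCL5 fell to 0.328 of its DMSO level with PRMT5i (log2 −1.61, SE 0.15, adjusted p = 4.14e-07) and to 0.390 of it in the combination (−1.36, SE 0.15, adjusted p = 3.51e-06), and the combination was below EZH2i as well (−1.30, SE 0.15, adjusted p = 6.80e-06). With EZH2i alone the change was −0.06 (SE 0.15).

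CCL23, a ligand of CCR1 (chromosome 17, 36013056 to 36017968), went the other way with PRMT5i. It had 4.82, 3.27, 5.08 and 5.80 CPM in DMSO libraries and 4.13, 3.23, 3.54 and 3.04 CPM with EZH2i. With PRMT5i it had 11.0, 10.7, 13.4 and 12.6 CPM, and in the combination 8.99, 6.74, 11.1 and 10.6 CPM. Both groups with PRMT5i lay above both without it. The rise was 2.5-fold with PRMT5i (log2 1.32, SE 0.17, adjusted p = 1.54e-05), 1.96-fold in the combination (0.97, SE 0.17, adjusted p = 0.000362) and 2.68-fold from EZH2i to the combination (1.42, SE 0.18, adjusted p = 1.60e-05). The chemokines CCL24, an eosinophil attractant, and CCL28, a mucosal chemokine, passed no threshold in any comparison. CCL28 had group means of 12.5 to 13.2 CPM, and CCL24 had 3.64, 3.40, 4.78 and 2.72 CPM in DMSO libraries, EZH2i, PRMT5i and the combination.

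**Figure D3:**
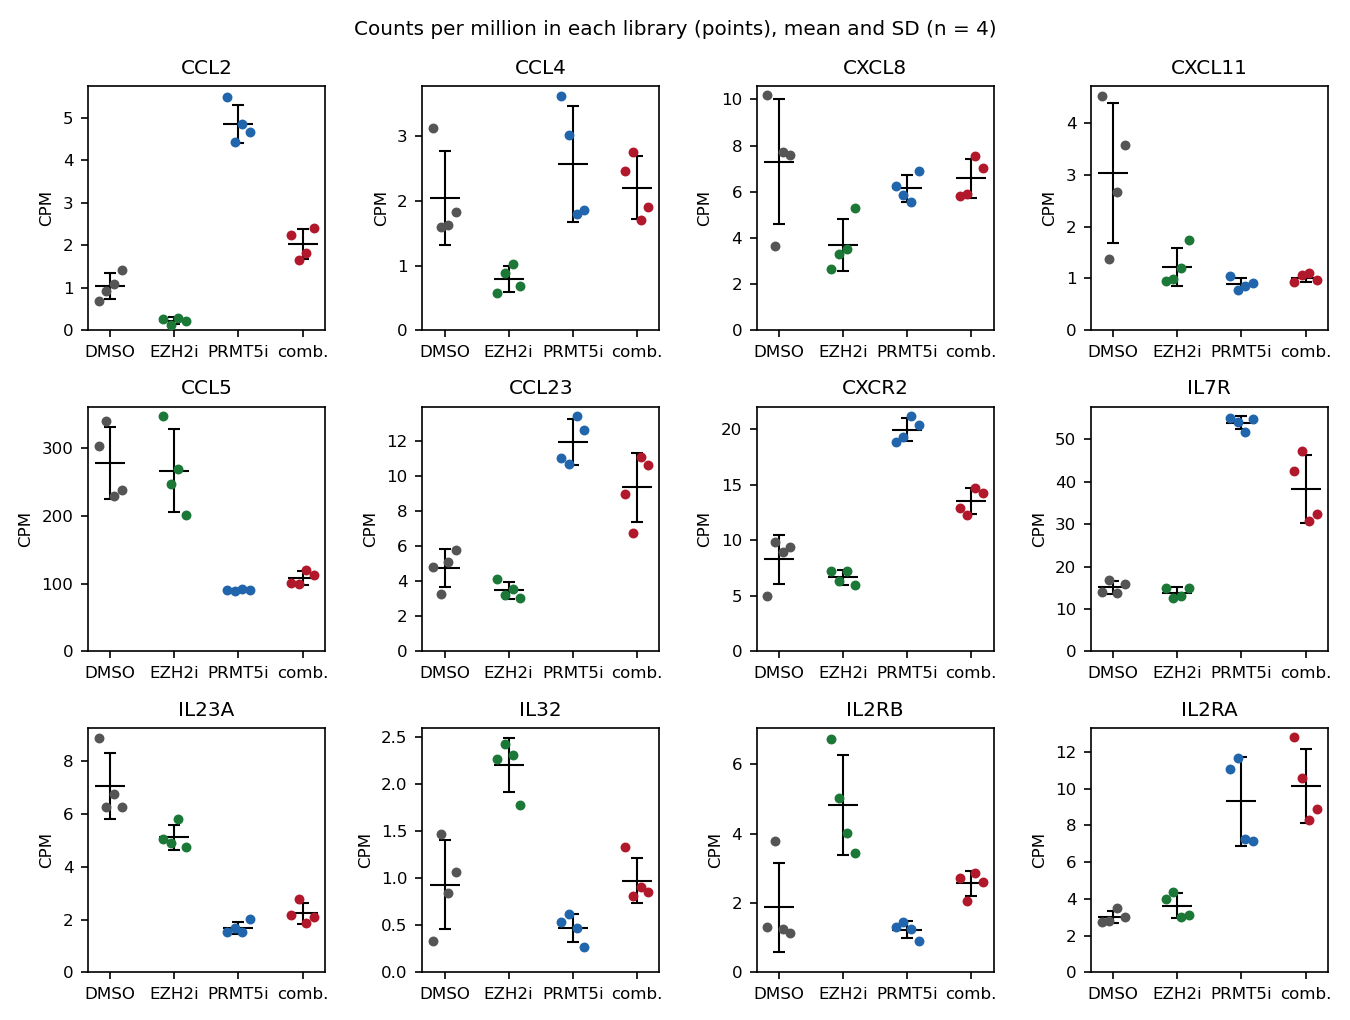
CPM (y axis, from 0) of 12 members in each library (points) by treatment (x axis), with the group mean and SD as bars (n = 4). CCL2 lies lowest with EZH2i and highest with PRMT5i, CCL5 and IL23A are low in both groups with PRMT5i, and IL7R is highest with PRMT5i, at 51.8 to 55.1 CPM.

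CXCR2, the receptor of CXCL8 on neutrophils (chromosome 2, 218125289 to 218137253), had 5.02, 9.88, 8.94 and 9.37 CPM in DMSO libraries and 7.23, 6.31, 7.23 and 5.94 CPM with EZH2i. It had 18.9, 19.3, 21.2 and 20.4 CPM with PRMT5i and 12.9, 12.3, 14.7 and 14.3 CPM in the combination. PRMT5i libraries were highest, combination libraries next, and DMSO and EZH2i libraries overlapped below them. The rise was 2.40-fold with PRMT5i (log2 1.26, SE 0.15, adjusted p = 7.72e-06), 1.63-fold in the combination (0.70, SE 0.15, adjusted p = 0.00196) and 2.02-fold from EZH2i to the combination (1.02, SE 0.16, adjusted p = 0.000117). The combination was below PRMT5i (−0.56, SE 0.15, adjusted p = 0.0451). That call was kept without replicate 1 or 2 of DMSO or replicate 1 or 4 of EZH2i and ended without any of the other 12 libraries (adjusted p = 0.0532 to 0.139) and with total counts only (adjusted p = 0.135).

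CCR1 and CCR2, the receptors of CCL3 and CCL5 and of CCL2, lie on chromosome 3 (46201709 to 46208396 and 46353734 to 46360928). CCR2 had 137, 89.3, 123 and 138 CPM in DMSO libraries, 70.3, 73.0, 95.7 and 95.8 CPM with EZH2i, 125, 122, 139 and 145 CPM with PRMT5i, and 105, 110, 115 and 110 CPM in the combination. The EZH2i libraries were lowest, with DMSO replicate 2 among them. CCR2 fell by 0.54 in log2 units with EZH2i (SE 0.13, adjusted p = 0.0198), and the combination was above EZH2i by 0.39 (SE 0.13, adjusted p = 0.0326). The former call ended without replicate 1 or 4 of DMSO or replicate 1 or 2 of EZH2i (adjusted p = 0.0608 to 0.0775). The latter ended without EZH2i replicate 1 or 2, PRMT5i replicate 2 or combination replicate 2, 3 or 4 (adjusted p = 0.0592 to 0.106).

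CCR1 had 51.8, 39.1, 57.1 and 60.6 CPM in DMSO libraries, 33.0, 31.9, 45.0 and 45.7 CPM with EZH2i, 57.0, 54.5, 56.7 and 55.5 CPM with PRMT5i, and 63.4, 62.6, 61.8 and 58.0 CPM in the combination. Its EZH2i libraries were all below its PRMT5i and combination libraries and overlapped DMSO. Only the combination against EZH2i passed, at 1.58-fold (log2 0.66, SE 0.13, adjusted p = 0.00140). With EZH2i alone it was −0.42 (SE 0.13, adjusted p = 0.0626), which passed in DESeq2 (adjusted p = 0.0246) and with a term for replicates 1 and 2 against 3 and 4 (adjusted p = 0.0346).

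CCR6, the receptor of CCL20 (chromosome 6, 167111807 to 167139696), was low and variable. It had 0.333, 0.0624, 0.646 and 0.908 CPM in DMSO libraries, 0.192, 0.1, 0.131 and 0.402 CPM with EZH2i, 2.88, 2.43, 4.85 and 5.42 CPM with PRMT5i, and 0.520, 0.138, 1.56 and 1.82 CPM in the combination. All PRMT5i libraries were above all others, and DMSO replicate 2 rests on 2 counts. The rise with PRMT5i was 7.54-fold (log2 2.91, SE 0.61, adjusted p = 0.00131). The combination was 4.91-fold above EZH2i (2.30, SE 0.73, adjusted p = 0.0272) with overlapping groups, a call that ended without EZH2i replicate 1, 2 or 3 or combination replicate 3 or 4 (adjusted p = 0.0594 to 0.0981), and it did not pass against PRMT5i (−1.97, SE 0.58, adjusted p = 0.0664). That last change passed without a filter on low counts (adjusted p = 0.0234), with only the groups compared (adjusted p = 0.0236) and with a term for replicates 1 and 2 against 3 and 4 (adjusted p = 0.00251). Another gene on the same strand shares 69.2% of its exon bases, so the source of these reads is uncertain.

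Of the remaining receptors, CCR3 (receptor of eotaxins) had means of 0.790, 0.688, 1.07 and 1.16 CPM in DMSO libraries, EZH2i, PRMT5i and the combination, and CCR7 (the lymph node homing receptor) had 0.285, 0.518, 0.570 and 0.801 CPM. CCR3 was higher in the combination than with EZH2i (log2 0.75, SE 0.20, adjusted p = 0.0106) and than with DMSO (0.54, SE 0.20, adjusted p = 0.0439). The call against DMSO was kept without EZH2i replicate 1, 3 or 4, PRMT5i replicate 1 or 3 or combination replicate 2 and ended without any of the other 10 libraries (adjusted p = 0.0515 to 0.106) and in DESeq2 (adjusted p = 0.0550), without a filter on low counts (adjusted p = 0.154) and with only the groups compared (adjusted p = 0.0857). CCR7 was higher in the combination than with DMSO (1.46, SE 0.40, adjusted p = 0.00860), with 1 count in DMSO replicate 1. It met the minimum of 0.5 CPM only through the combination libraries, so this call is not independent of the choice of members. CXCR4, the receptor that retains blast cells in marrow and the most abundant chemokine receptor per kilobase with DMSO, had means of 79.2, 75.9, 88.5 and 75.5 CPM and passed no threshold, and neither did CXCR6.

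Among the interleukins, IL23A fell and IL16 rose with PRMT5i. IL23A, the specific subunit of interleukin 23 (chromosome 12, 56334174 to 56340410), had 8.87, 6.27, 6.75 and 6.26 CPM in DMSO libraries and 5.04, 4.88, 5.79 and 4.74 CPM with EZH2i. It had 1.52, 1.67, 1.54 and 2.01 CPM with PRMT5i and 2.18, 2.77, 1.87 and 2.09 CPM in the combination. Every library with PRMT5i was below every library without it, and DMSO and EZH2i did not overlap. IL23A fell by 2.06 in log2 units with PRMT5i (SE 0.15, adjusted p = 4.42e-08), by 1.65 in the combination (SE 0.15, adjusted p = 5.92e-07) and by 1.19 from EZH2i to the combination (SE 0.15, adjusted p = 1.88e-05). With EZH2i alone the change was −0.46 (SE 0.14, adjusted p = 0.0611), which passed in DESeq2 (adjusted p = 0.0241).

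IL16, a CD4 ligand that attracts T cells (chromosome 15, 81159575 to 81314058), had 12, 16.3, 14.2 and 14.9 CPM in DMSO libraries, 18.6, 13.7, 17.8 and 13.8 CPM with EZH2i, 25.8, 27.0, 31.8 and 30.0 CPM with PRMT5i, and 23.4, 23.1, 28.6 and 25.2 CPM in the combination. Libraries with PRMT5i were all above those without. It rose 2-fold with PRMT5i (log2 1.00, SE 0.12, adjusted p = 8.58e-06), 1.75-fold in the combination (0.80, SE 0.12, adjusted p = 8.74e-05) and 1.57-fold from EZH2i to the combination (0.65, SE 0.12, adjusted p = 0.000789). The gene STARD5 on the opposite strand shares 36.0% of its exon bases.

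IL32, a proinflammatory cytokine that induces TNF and CXCL8 (chromosome 16, 3065297 to 3082192), was the interleukin that rose with EZH2i. It had 0.333, 1.47, 0.847 and 1.07 CPM in DMSO libraries, 2.27, 2.43, 2.31 and 1.78 CPM with EZH2i, 0.540, 0.623, 0.467 and 0.273 CPM with PRMT5i, and 1.33, 0.808, 0.906 and 0.854 CPM in the combination. EZH2i libraries were above all others, and PRMT5i overlapped DMSO through DMSO replicate 1. The changes were 1.25 (SE 0.31, adjusted p = 0.0237) with EZH2i, −0.94 (SE 0.34, adjusted p = 0.0410) with PRMT5i and −1.16 (SE 0.31, adjusted p = 0.00966) from EZH2i to the combination. The call with EZH2i ended without replicate 3 or 4 of DMSO or replicate 1, 2 or 3 of EZH2i (adjusted p = 0.0523 to 0.0637). The call with PRMT5i was kept without DMSO replicate 1, EZH2i replicate 1, 2 or 4, PRMT5i replicate 2 or combination replicate 1, 2 or 4, and ended without any of the other 8 libraries (adjusted p = 0.0502 to 0.124), with total counts only (adjusted p = 0.0633) and with only the groups compared (adjusted p = 0.107).

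IL1B, the inflammasome-processed cytokine (chromosome 2, 112829751 to 112836903), had means of 1.65 ± 0.511, 0.417 ± 0.0301, 0.521 ± 0.254 and 0.450 ± 0.308 CPM in DMSO libraries, EZH2i, PRMT5i and the combination (SD, n = 4). All DMSO libraries, at 0.935 to 2.15 CPM, were above all others. It fell by 1.99 with EZH2i (SE 0.43, adjusted p = 0.0111), by 1.68 with PRMT5i (SE 0.41, adjusted p = 0.00419) and by 1.92 in the combination (SE 0.42, adjusted p = 0.00206) in log2 units, with as few as 6 counts in a library. IL1B met the minimum of 0.5 CPM only through its DMSO libraries. These falls are therefore not independent of the choice of members. IL24 was higher in the combination (1.17 CPM) than with DMSO (0.661 CPM; log2 0.84, SE 0.30, adjusted p = 0.0374), a call that ended without DMSO replicate 1, 3 or 4 or combination replicate 1, 3 or 4 (adjusted p = 0.0628 to 0.121) or a filter on low counts (adjusted p = 0.0558). IL18, the other inflammasome-processed interleukin, had group means of 11.9 to 14.6 CPM and passed no threshold, as did IL12A and IL17D.

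Of the 6 interleukin receptor chains that rose with PRMT5i, IL7R had the largest fold. IL7R, the chain that binds interleukin 7 and TSLP (chromosome 5, 35852695 to 35879603), had 13.9, 16.8, 13.7 and 15.9 CPM in DMSO libraries and 14.9, 12.6, 13.0 and 15 CPM with EZH2i. It had 55.1, 54.1, 51.8 and 54.9 CPM with PRMT5i and 42.6, 47.3, 30.8 and 32.4 CPM in the combination. PRMT5i libraries were highest, combination libraries next, and DMSO and EZH2i overlapped. It rose 3.58-fold with PRMT5i (log2 1.84, SE 0.13, adjusted p = 2.42e-08), 2.54-fold in the combination (1.34, SE 0.13, adjusted p = 8.07e-07) and 2.77-fold from EZH2i to the combination (1.47, SE 0.13, adjusted p = 4.34e-07). The combination was below PRMT5i (−0.50, SE 0.12, adjusted p = 0.0307). That call ended without any of the 4 PRMT5i replicates or combination replicate 3 or 4 (adjusted p = 0.0674 to 0.11) or with total counts only (adjusted p = 0.115).

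The alpha and beta chains of the interleukin 2 receptor did not move together. IL2RA, the alpha chain CD25 (chromosome 10, 6010689 to 6062370), had 2.72, 2.81, 3.48 and 3.04 CPM in DMSO libraries, 4.00, 4.38, 3.01 and 3.10 CPM with EZH2i, 11.1, 11.7, 7.28 and 7.18 CPM with PRMT5i, and 12.8, 10.6, 8.29 and 8.87 CPM in the combination. Libraries with PRMT5i were all above those without, and replicates 1 and 2 were the higher ones. It rose 3.09-fold with PRMT5i (log2 1.63, SE 0.19, adjusted p = 5.30e-06), 3.37-fold in the combination (1.75, SE 0.19, adjusted p = 3.66e-06) and 2.79-fold from EZH2i to the combination (1.48, SE 0.19, adjusted p = 2.12e-05). IL2RG, the common gamma chain, had means of 0.95 to 1.66 CPM and passed no threshold.

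IL2RB, the beta chain (chromosome 22, 37125838 to 37175054), had 1.30, 3.8, 1.25 and 1.14 CPM in DMSO libraries, 6.74, 5.04, 4.03 and 3.45 CPM with EZH2i, 1.32, 1.46, 1.24 and 0.895 CPM with PRMT5i, and 2.73, 2.05, 2.88 and 2.62 CPM in the combination. EZH2i was the highest group and overlapped DMSO only through DMSO replicate 2. The log2 fold change with EZH2i was 1.39 (SE 0.32, adjusted p = 0.0172), which became 1.97 without DMSO replicate 2. The call ended without replicate 3 or 4 of DMSO or replicate 1 of EZH2i (adjusted p = 0.0544 to 0.0674). The combination was below EZH2i (−0.91, SE 0.32, adjusted p = 0.0411), a call kept without any 1 DMSO library, EZH2i replicate 4 or PRMT5i replicate 2 or 4 and ended without any of the other 9 libraries (adjusted p = 0.0514 to 0.139) and with total counts only (adjusted p = 0.0632). From PRMT5i to the combination the groups did not overlap, but the change did not pass (1.06, SE 0.33, adjusted p = 0.0929). It passed in DESeq2 (adjusted p = 0.0235), with the term for replicates (adjusted p = 0.0434) and with only the groups compared (adjusted p = 0.00342).

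IL4R and IL13RA1, which form the receptor of interleukin 4 and interleukin 13, rose together with PRMT5i. IL4R (chromosome 16, 27313668 to 27364778) had 18.4, 26.2, 23.3 and 25.4 CPM in DMSO libraries, 26.1, 23.6, 24.2 and 21.4 CPM with EZH2i, 40.5, 41.1, 41.5 and 37.4 CPM with PRMT5i, and 34.4, 30.2, 33.9 and 30.6 CPM in the combination. PRMT5i libraries were highest and combination libraries next, with no overlap with the others. The rise was 1.72-fold with PRMT5i (log2 0.78, SE 0.10, adjusted p = 1.89e-05), 1.38-fold in the combination (0.47, SE 0.10, adjusted p = 0.00217) and 1.36-fold from EZH2i to the combination (0.44, SE 0.10, adjusted p = 0.00442).

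IL13RA1 (chromosome X, 118727572 to 118794539) had 21.8, 18.4, 23.1 and 23.9 CPM in DMSO libraries, 17.0, 17.3, 20.3 and 20.6 CPM with EZH2i, 34.1, 35.4, 43.1 and 45.2 CPM with PRMT5i, and 23.6, 28.8, 30.0 and 30.1 CPM in the combination. PRMT5i libraries again lay above all others, and combination replicate 1 lay within the DMSO range. It rose 1.81-fold with PRMT5i (log2 0.85, SE 0.12, adjusted p = 3.18e-05), 1.5-fold from EZH2i to the combination (0.58, SE 0.12, adjusted p = 0.00158) and 1.29-fold in the combination over DMSO (0.37, SE 0.12, adjusted p = 0.0243). The last call ended without DMSO replicate 2 or combination replicate 2, 3 or 4 (adjusted p = 0.0557 to 0.0702). The combination was below PRMT5i (−0.49, SE 0.12, adjusted p = 0.0276), which ended without PRMT5i replicate 3 or 4 or combination replicate 1 or 2 (adjusted p = 0.0672 to 0.109) or with total counts only (adjusted p = 0.0541).

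Adding EZH2i to PRMT5i lowered IL12RB1 and IL27RA and raised IL12RB2, while IL6ST, which pairs with IL27RA, did not pass (−0.23, adjusted p = 0.544). IL12RB1, the chain that the receptors of interleukin 12 and interleukin 23 share (chromosome 19, 18058995 to 18098944), had 5.85, 6.27, 7.31 and 8.03 CPM in DMSO libraries and 5.37, 4.46, 4.59 and 4.05 CPM with EZH2i. It had 8.74, 7.30, 9.38 and 7.85 CPM with PRMT5i and 5.95, 4.64, 5.71 and 4.74 CPM in the combination. Neither addition of EZH2i left an overlap between the groups. It fell by 0.58 in log2 units against DMSO (SE 0.13, adjusted p = 0.0155), a call that ended without DMSO replicate 4 (adjusted p = 0.0649), and by 0.66 against PRMT5i (SE 0.13, adjusted p = 0.00828). The combination was below DMSO (−0.39, SE 0.13, adjusted p = 0.0289), which ended without DMSO replicate 3 or 4 or combination replicate 2 or 4 (adjusted p = 0.0692 to 0.106), with total counts only (adjusted p = 0.149), without a filter on low counts (adjusted p = 0.0619) and with only the groups compared (adjusted p = 0.0621).

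IL27RA, the interleukin 27 receptor chain (chromosome 19, 14031748 to 14053216), had 26.1, 24.5, 24.5 and 22.7 CPM in DMSO libraries, 19.1, 19.0, 20.9 and 15.4 CPM with EZH2i, 29.3, 28.4, 26.3 and 23.2 CPM with PRMT5i, and 20.2, 18.5, 19.8 and 17.6 CPM in the combination. Libraries with EZH2i were all below those without it. IL27RA fell by 0.39 in log2 units with EZH2i against DMSO (SE 0.10, adjusted p = 0.0246), by 0.50 against PRMT5i (SE 0.10, adjusted p = 0.00931) and by 0.36 in the combination against DMSO (SE 0.10, adjusted p = 0.00937). The first ended without replicate 1 or 3 of DMSO or replicate 2 or 4 of EZH2i (adjusted p = 0.0509 to 0.0560) and with total counts only (adjusted p = 0.0876), which ended the last as well (adjusted p = 0.0823).

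IL12RB2, the signalling chain of the interleukin 12 receptor (chromosome 1, 67307364 to 67397090), had 6.65, 5.83, 4.57 and 4.70 CPM in DMSO libraries, 7.34, 6.83, 6.52 and 6.03 CPM with EZH2i, 5.08, 5.25, 4.48 and 3.83 CPM with PRMT5i, and 8.36, 9.12, 6.45 and 6.48 CPM in the combination. The combination lay above PRMT5i without overlap and overlapped DMSO. It was higher than PRMT5i by 0.71 in log2 units (SE 0.15, adjusted p = 0.0128) and than DMSO by 0.49 (SE 0.15, adjusted p = 0.0168). The former ended without PRMT5i replicate 3 or 4 or combination replicate 2 (adjusted p = 0.0526 to 0.0554). The latter ended without DMSO replicate 3 or 4 or combination replicate 1 or 2 (adjusted p = 0.0524 to 0.0669) and with only the groups compared (adjusted p = 0.0558).

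Of the interleukin 17 receptor chains, IL17RE fell with PRMT5i. IL17RE, the interleukin 17C receptor chain, had means of 0.734, 1.19, 0.304 and 0.369 CPM in DMSO libraries, EZH2i, PRMT5i and the combination. It fell by 1.25 in log2 units with PRMT5i (SE 0.26, adjusted p = 0.00114), by 0.95 in the combination (SE 0.25, adjusted p = 0.00782) and by 1.67 from EZH2i to the combination (SE 0.25, adjusted p = 8.99e-05). IL17RE met the minimum of 0.5 CPM only through the EZH2i libraries, so its changes to and from EZH2i are not independent of that choice. With EZH2i alone it was 0.72 (SE 0.23, adjusted p = 0.0704), which passed in DESeq2 (adjusted p = 0.0483) and with the term for replicates (adjusted p = 0.0462). IL17RC had means of 0.857, 0.983, 0.635 and 0.546 CPM and was lower in the combination than with EZH2i (−0.84, SE 0.23, adjusted p = 0.0104) and than with DMSO (−0.62, SE 0.23, adjusted p = 0.0419). The latter ended without DMSO replicate 1 or 2, EZH2i replicate 2 or any combination replicate (adjusted p = 0.0505 to 0.115), with total counts only (adjusted p = 0.111), in DESeq2 (adjusted p = 0.0613), without a filter on low counts (adjusted p = 0.119) and with only the groups compared (adjusted p = 0.0796). IL17RA, the chain shared by that family, had means of 208 to 244 CPM and passed no threshold, and neither did IL17RB.

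IL6R, the chain that binds interleukin 6, had means of 140, 167, 169 and 164 CPM and was higher with PRMT5i (log2 0.27, SE 0.08, adjusted p = 0.0199) and in the combination (0.23, SE 0.08, adjusted p = 0.0442) than with DMSO. The former ended without DMSO replicate 3 or 4 or PRMT5i replicate 1 or 2 (adjusted p = 0.0615 to 0.0748), without a filter on low counts (adjusted p = 0.0604) and with only the groups compared (adjusted p = 0.0652). The latter was kept without DMSO replicate 2, EZH2i replicate 1 or 4 or combination replicate 3 and ended without any of the other 12 libraries (adjusted p = 0.0551 to 0.143), without a filter on low counts (adjusted p = 0.148) and with only the groups compared (adjusted p = 0.117). From EZH2i to the combination IL6ST, the shared signal transducer gp130, rose by 0.57 (SE 0.15, adjusted p = 0.0102). IL1RAP, the accessory chain of interleukin 1 receptors, rose by 0.47 in that comparison (SE 0.15, adjusted p = 0.0243), a call that ended without EZH2i replicate 1 or 3, PRMT5i replicate 2 or combination replicate 1 or 2 (adjusted p = 0.0505 to 0.0844).

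IL21R, IL9R and IL23R complete the receptor chains past a threshold. IL21R had means of 16.8, 13.3, 20.5 and 17.5 CPM, with a rise of 0.29 with PRMT5i (SE 0.10, adjusted p = 0.0340) and of 0.40 from EZH2i to the combination (SE 0.10, adjusted p = 0.00739). An antisense gene shares 23.3% of its exon bases. The former call ended without DMSO replicate 1 or 2 or PRMT5i replicate 1 or 2 (adjusted p = 0.0755 to 0.141), without a filter on low counts (adjusted p = 0.0973) and with only the groups compared (adjusted p = 0.0937). IL23R, which pairs with IL12RB1, was higher in the combination than with DMSO (0.45, SE 0.15, adjusted p = 0.0223), which ended without DMSO replicate 2, 3 or 4 or combination replicate 4 (adjusted p = 0.0549 to 0.0731) and with only the groups compared (adjusted p = 0.0700).

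IL9R, with means of 1.11, 1.30, 0.712 and 0.802 CPM and near-identical pseudogene copies, was lower with PRMT5i than with DMSO (−0.64, SE 0.24, adjusted p = 0.0477) and in the combination than with EZH2i (−0.71, SE 0.24, adjusted p = 0.0355). The former was kept without DMSO replicate 2, EZH2i replicate 4 or PRMT5i replicate 3 and ended without any of the other 13 libraries (adjusted p = 0.0502 to 0.134) and with total counts only, no filter on low counts, a term for replicates 1 and 2 against 3 and 4, or only the groups compared (adjusted p = 0.0508 to 0.108). The latter ended without EZH2i replicate 1, 2 or 3 or combination replicate 1, 2 or 3 (adjusted p = 0.0693 to 0.0966) and without a filter on low counts (adjusted p = 0.0809).

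Both inhibitors of cytokine action among the members were higher with PRMT5i. IL1RN, the interleukin 1 receptor antagonist (chromosome 2, 113107214 to 113134016), had 7.43, 10.1, 9.25 and 9.53 CPM in DMSO libraries, 8.35, 8.06, 8.96 and 7.01 CPM with EZH2i, 13.0, 11.9, 10.9 and 11.4 CPM with PRMT5i, and 13.0, 10.9, 10.8 and 9.95 CPM in the combination. PRMT5i libraries were all above DMSO libraries, and combination replicate 4 lay within the DMSO range. It rose by 0.38 in log2 units with PRMT5i (SE 0.11, adjusted p = 0.0144), by 0.30 in the combination (SE 0.11, adjusted p = 0.0449) and by 0.47 from EZH2i to the combination (SE 0.11, adjusted p = 0.00512). The first ended without PRMT5i replicate 1 (adjusted p = 0.0509). The second was kept without DMSO replicate 2, EZH2i replicate 4 or combination replicate 4 and ended without any of the other 13 libraries (adjusted p = 0.0501 to 0.164), without a filter on low counts (adjusted p = 0.130) and with only the groups compared (adjusted p = 0.103).

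IL18BP, which binds and neutralises interleukin 18, had means of 1.12, 1.40, 1.57 and 1.62 CPM and was higher than DMSO with PRMT5i (log2 0.49, SE 0.16, adjusted p = 0.0231) and in the combination (0.52, SE 0.16, adjusted p = 0.0153). The former ended without DMSO replicate 1 or 3 or PRMT5i replicate 1 or 2 (adjusted p = 0.0570 to 0.0780), and both ended without a filter on low counts (adjusted p = 0.115 and 0.0899). NUMA1 on the opposite strand shares 15.6% of its exon bases. IL4I1 had means of 11.2, 7.29, 10.8 and 10.1 CPM and passed no threshold (−0.62 with EZH2i, adjusted p = 0.0642).

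In all 18 members passed no threshold in any of the 6 comparisons. Their log2 fold changes ran from −0.62 (IL4I1) to 0.60 (IL2RG) with EZH2i, from −0.30 (CXCR6) to 0.40 (CCL24) with PRMT5i and from −0.41 (CCL24) to 0.56 (IL20RB) in the combination, each against DMSO. Against PRMT5i the combination gave −0.82 (CCL24) to 0.55 (CXCR6), and against EZH2i −0.37 (IL2RG) to 0.47 (IL4I1). They include the abundant chains IL17RA and IL3RA, the interleukin 3 receptor chain known as CD123, which had means of 54.5 to 67.2 CPM. A p above the threshold does not show that these 18 did not change.

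The design allows each inhibitor's effect to be set beside its effect in the presence of the other, from libraries that are not shared. For EZH2i, the change against DMSO and the change from PRMT5i to the combination had the same sign in 39 of 55 members (Pearson r 0.668, Spearman rho 0.637 across genes, which are not independent replicates). CCL2, IL12RB1 and IL27RA passed in both and fell in both. CXCL8 and CXCL11 fell with EZH2i alone and had small positive values on top of PRMT5i, 0.09 and 0.17, which did not pass. For PRMT5i the sign was shared by 41 of 55 members (r 0.842, rho 0.764), and 17 passed in both, all in the same direction. They include CCL2, CCL23, CCL5, CCR6, CXCR2, IL13RA1, IL16, IL17RE, IL1RN, IL21R, IL23A, IL2RA, IL32, IL4R, IL7R and IL9R. IL1B fell with PRMT5i alone (−1.68) and had 0.07 on top of EZH2i. Shared signs and calls were not counted over all genes, so they are not shown to be particular to the members. Of all genes, 35.3% passed with PRMT5i against DMSO and 28.0% in the combination against EZH2i.

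**Figure D4:**
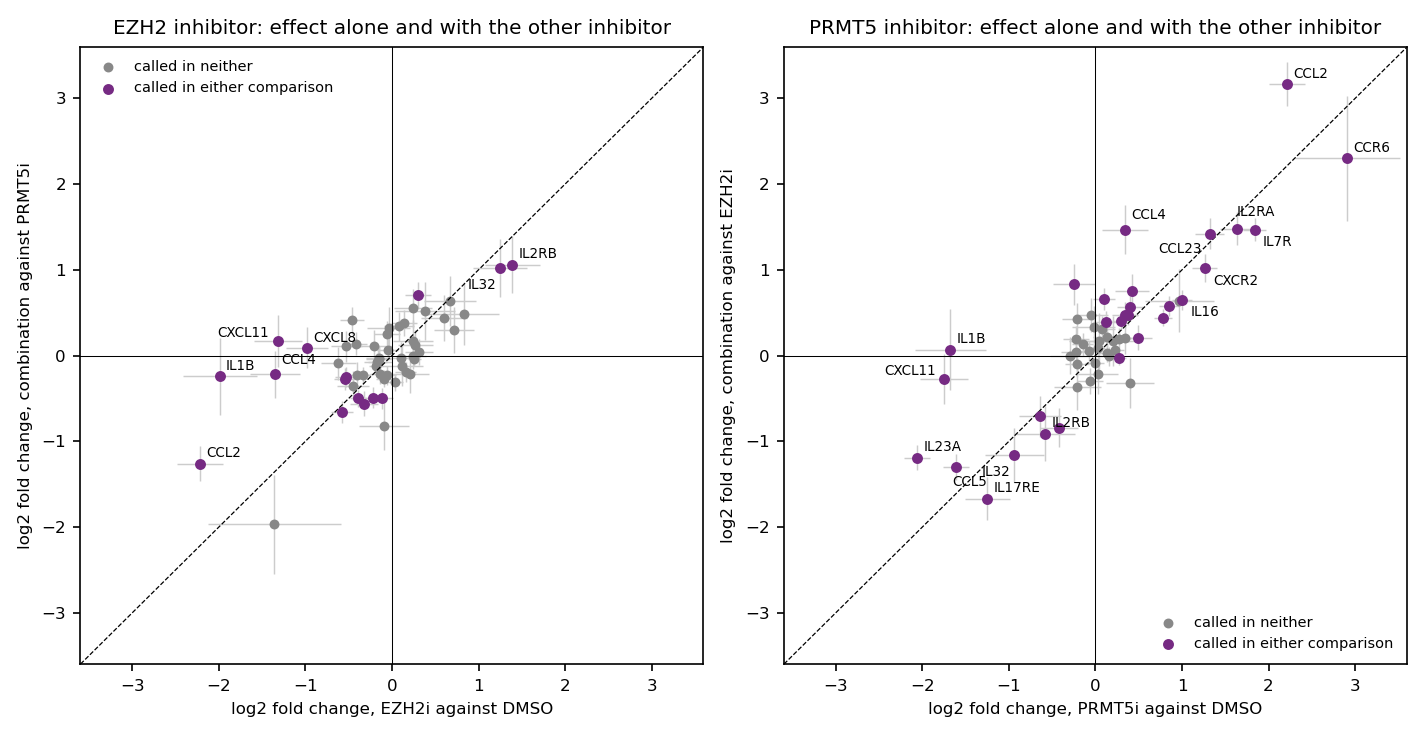
Log2 fold change of 54 members with EZH2i (left) and PRMT5i (right), against DMSO (x axis) and on top of the other inhibitor (y axis), with SE as bars and a dashed line of equality. CCL2 lies at −2.22 and −1.26 on the left and at 2.21 and 3.17 on the right, while CXCL11 and CXCL8 lie near 0 on the y axis of the left panel.

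Whether these effects differ was tested by the interaction, the log2 change from PRMT5i to the combination minus that from DMSO to EZH2i. No member passed in edgeR, beside 0.29% of all genes (0.254% higher and 0.0362% lower), whereas 10 had an unadjusted p under 0.05, beside 8.99% of all genes, and 1 passed in DESeq2. That member was IL23A (0.87, SE 0.21, adjusted p = 0.161 in edgeR and 0.0270 in DESeq2). CXCL11 (1.49, SE 0.41, adjusted p = 0.235), CXCL8 (1.08, SE 0.34, adjusted p = 0.317), CCL4 (1.13, SE 0.40, adjusted p = 0.396), CCL2 (0.96, SE 0.34, adjusted p = 0.396) and IL1B (1.75, SE 0.62, adjusted p = 0.402) had positive values, as had CCR1 and IL31RA. IL6R (−0.30) and IL4R (−0.34), the other two of the 10, had negative ones. Without DMSO replicate 2, 2 members passed, beside 124 of all genes in place of 48. No difference between the EZH2i effects passed for any of them in edgeR with all libraries.

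Replicates 3 and 4 differed from replicates 1 and 2 across treatments, and members were among the genes concerned. The labels do not say what the replicate numbers mark. In a fit with this term added to the treatments, 8 of 55 members passed for it, beside 1.59% of all genes. Among them CCR6 (log2 1.5, SE 0.30, adjusted p = 0.0179), CXCR4 (0.24), IL13RA1 (0.26) and IL31RA (0.38) were higher in replicates 3 and 4, and CCL24 (−0.71, SE 0.11, adjusted p = 0.00229), IL12A (−0.60) and IL12RB2 (−0.34) were lower. Since each treatment has 2 libraries on each side, the treatment comparisons are balanced for this difference. With the term in the fit, 17 members passed with EZH2i against DMSO in place of 11, and 11 in the combination against PRMT5i in place of 7. The counts of all genes were 1533 in place of 1259 and 908 in place of 688.

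Genes that carry the signals of these receptors were counted from 5 lists of JAK, STAT and SOCS genes, IL-1 and IL-17 adaptors, chemokine receptor signalling, other cytokines with their receptors, and cytokine processing. Of 138 genes listed 116 were tested. With EZH2i 4 rose and 5 fell, beside 7.6% of all genes in both directions, with PRMT5i 34 rose and 11 fell, beside 35.3%, and in the combination 32 rose and 11 fell, beside 36.2%. Their medians were 0.00, 0.19 and 0.19. Adding EZH2i to PRMT5i changed 3, beside 4.16%, and adding PRMT5i to EZH2i changed 38, beside 28.0%. The count of 9 with EZH2i was 32 without DMSO replicate 2, 4 and 3 without DMSO replicates 3 and 4, 4 without either of EZH2i replicates 1 and 2, and 0 with only the groups compared. That of all genes, 1259, became 4591 without DMSO replicate 2, 499 without DMSO replicate 4 and 135 with only the groups compared. The count of 3 became 7 when DMSO replicate 1 was left out, 5 without DMSO replicate 2, and 1 without PRMT5i replicate 3 or combination replicate 2. That of all genes, 688, became 1011 without DMSO replicate 1 and 263 without PRMT5i replicate 3.

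Chemokine receptor signalling had the largest share with PRMT5i among the 5 lists, with 13 of 27 genes higher and 2 lower. These were 55.6% of the list, beside 35.3% of all genes. In the combination against DMSO 7 were higher and 2 lower, 33.3% beside 36.2% of all genes. PIK3R6 and PIK3R5 encode the adaptors of the phosphoinositide kinase that G protein-coupled receptors activate. With PRMT5i against DMSO they rose by 2.25 (SE 0.21, adjusted p = 4.40e-07) and 1.04 (SE 0.11, adjusted p = 2.69e-06) in log2 units. The G protein subunit gene GNG2 rose with EZH2i (0.71, SE 0.14, adjusted p = 0.00697), with PRMT5i (1.29, SE 0.14, adjusted p = 2.13e-06) and in the combination (1.58, SE 0.14, adjusted p = 4.58e-07). ELMO1, which links such receptors to cell migration, rose with EZH2i (0.52, SE 0.13, adjusted p = 0.0214).

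Of 27 JAK, STAT and SOCS genes 5 rose and 2 fell with PRMT5i, 25.9% beside 35.3% of all genes. Among them were the kinase gene JAK2 (0.75, SE 0.11), the phosphatase gene PTPN6 (0.65, SE 0.15) and the suppressor gene SOCS7 (−0.40, SE 0.08). With EZH2i STAT2 (−0.40, SE 0.07, adjusted p = 0.00347), which carries interferon signals, fell and STAT5B rose (0.37, SE 0.11, adjusted p = 0.0496). STAT2 passed for the interaction, at 0.62 (SE 0.10, adjusted p = 0.00865), and its group means were 96.3 (DMSO), 72.8 (EZH2i), 77.8 (PRMT5i) and 90.1 CPM (combination).

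With EZH2i none of 17 adaptors of interleukin 1 and interleukin 17 signalling was called, beside 7.6% of all genes. With PRMT5i 2 were higher and 3 lower, 29.4% beside 35.3% of all genes. MYD88, the adaptor of interleukin 1 receptors, rose from 7.20 to 19.9 CPM (log2 1.48, SE 0.37, adjusted p = 0.00497), and the IRAK family genes IRAK1 (−0.46, SE 0.12) and IRAK3 (−0.29, SE 0.09) fell. IRAK2 fell in the combination (−0.67, SE 0.15). Among other cytokines and receptors TNF, an inflammatory cytokine of monocytes, fell with EZH2i from 32.7 to 15.2 CPM (−1.11, SE 0.20, adjusted p = 0.00404) and from 46.8 with PRMT5i to 24.7 CPM in the combination (−0.92, SE 0.20, adjusted p = 0.0142). CSF2RA, the GM-CSF receptor chain, fell with EZH2i (−0.37, SE 0.10) and TGFBR2 rose (0.30, SE 0.08). With PRMT5i the erythropoietin receptor gene EPOR (−1.06, SE 0.12) and CRLF3 (−0.89, SE 0.12) fell.

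Genes of cytokine processing had 4 of 13 higher and 1 lower with PRMT5i, 38.5% beside 35.3% of all genes. CASP1, which cleaves the precursors of interleukin 1 beta and interleukin 18, rose (0.53, SE 0.07, adjusted p = 3.50e-05), GSDMD, which forms the pore for their release, fell (−0.71, SE 0.12, adjusted p = 0.000264), and the neutrophil protease gene PRTN3 rose (0.70, SE 0.18). In the combination CASP1 (0.52), GSDMD (−0.85) and ADAM10 (0.42), a shedding protease gene, passed in the same directions. The inflammasome sensor gene AIM2 fell with EZH2i, from 0.772 to 0.405 CPM (−0.93, SE 0.20, adjusted p = 0.0123).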

How the data were processed

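RNA was sequenced as paired-end Illumina libraries from 16 samples, 4 for each of 4 treatments. The authors deposited 1 table of expected counts per gene, not scaled to depth, made with STAR 2.5.3 and RSEM on GRCh38.p7, per the submitters' processing notes. The RSEM version, the annotation and the strand setting are not given in the sources used here, and 12.0% of values are not whole, since RSEM divides reads that match several genes. Expected counts were rounded. Genes were kept with filterByExpr of edgeR 4.0.16 (16555 genes), libraries were scaled by TMM, and 1 quasi-likelihood model with 4 treatment means was fitted to all 16 libraries. P-values were adjusted by Benjamini-Hochberg across the 16555 genes and judged at 0.05, and every adjusted p comes from this edgeR test unless DESeq2 1.42.0 is named. CPM values use the scaled library sizes, except the mean CPM that chose the members, which uses column totals. Members and lists were chosen with earlier results of these data known. Values in every library are given for the 24 members with the smallest p among those past the threshold that reached a group mean of 2 CPM, and 1 of these, like some signalling genes, is counted but not reported here. The other members past the threshold are named briefly and the rest by range. Up to 3 genes of each signalling list are named, by smallest p past the threshold in each comparison against DMSO. Shared exon bases come from GENCODE release 29. Alternatives were total-count scaling, DESeq2, no filter on low counts, a replicate block, a term for replicates 1 and 2 against 3 and 4, a fit of only the groups compared, other minimum levels, and leaving out each library. The fit was tested on simulated data, and replicate numbers are not stated to pair the samples.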

Additional observations from a re-analysis of the deposited data

Results flagged for a closer look

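Of 96 groups of 4 libraries tested among the members given library by library, 2 held a library far from the other 3, where chance gives about 1 in 20. DMSO replicate 1 had 3.13 CPM of CCL4, against 1.59 to 1.82 CPM in the other DMSO libraries. DMSO replicate 2 had 3.8 CPM of IL2RB, against 1.14 to 1.30 CPM in the others. CCL4 remained below DMSO with EZH2i without any 1 library, with log2 fold changes of −1.49 to −1.07, and for IL2RB the change with EZH2i was 1.97 without DMSO replicate 2 in place of 1.39.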

How the results depend on the processing

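Of 91 member calls over the 6 comparisons, 54 held under every alternative and without any 1 library, and 37 ended in at least 1 fit. No value changed sign among them. For EZH2i against DMSO, 18 members passed in DESeq2, 17 with a term for replicates 1 and 2 against 3 and 4, and 2 with only the groups compared, which also left 0 signalling genes and 135 genes in all, and DESeq2 gave 2149 genes in all. For the combination against PRMT5i, DESeq2 gave 11 members, 7 signalling genes and 1064 genes in all, the term for replicates gave 11 and 6, and only the groups compared gave 19, 19 and 2099. For the interaction DESeq2 gave 1 member and 121 genes. The replicate block gave 6 signalling genes for the combination against PRMT5i, where 3 had passed. The labels do not say whether the numbers pair the samples. Same-numbered libraries correlated at −0.272 to 0.236 in their deviations, and 14 of 48 correlated best with their own number. With 4 libraries per group these values cannot decide whether samples were paired. With the block 15, 21, 25, 10, 26 and 0 members passed for EZH2i, PRMT5i and the combination against DMSO, the combination against PRMT5i and against EZH2i, and the interaction. The counts of all genes with the block were 1430, 5939, 6130, 857, 4740 and 50 in the same order. The block ended the calls of IL32 (adjusted p = 0.0519) and IL9R (0.0671) with PRMT5i, of IL1RN in the combination against DMSO (0.0612) and of IL9R in the combination against EZH2i (0.0577). With total counts only, 855 of all genes were higher and 289 lower with EZH2i against DMSO in place of 681 and 578, and 3897 and 2021 in the combination against DMSO in place of 2920 and 3070, with 748 and 121 against PRMT5i in place of 482 and 206. Leaving out 1 library gave 5 to 21, 15 to 22, 19 to 26, 3 to 9, 20 to 28 and 0 to 2 members in the same order, 3 to 32, 38 to 56, 34 to 59, 1 to 7, 29 to 45 and 2 signalling genes, and 499 to 4591, 4898 to 6853, 5122 to 7110, 263 to 1011, 3714 to 5565 and 28 to 124 genes in all. The cause of these moves was not tested. Depth limits the lowest members most, and 7 of them had a library under 0.3 CPM, with as few as 1 count.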
